A study of Mus musculus with 6 samples.

Results

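The 10 genes described here encode the stress sensors of the endoplasmic reticulum (ER), transcription factors of the same response and components of ER-associated degradation (ERAD). They are Ern1, Atf6, Eif2ak3, Xbp1, Creb3l3, Sel1l, Syvn1, Herpud1, Edem1 and Pdia4, chosen by name, and all 10 were found by Ensembl identifier among the 56305 genes of the table and passed the filter on low values. The data are RNA-Seq of whole liver from 3 WT and 3 Vps15LKO male mice of 5 weeks, fed ad libitum and killed at ZT6, with 1 library per liver. Vps15LKO mice are AlbCre+;Vps15 f/f, so Cre is driven by the albumin promoter and the deletion of Vps15 is chronic and liver-specific. Which cells of the liver lost the gene was not measured here. Vps15 is the regulatory partner of the lipid kinase Vps34 in class 3 PI3K. The labels call the controls WT and state no further allele.

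When misfolded proteins build up in the ER, IRE1α (Ern1), ATF6 (Atf6) and PERK (Eif2ak3) sense them at the ER membrane and start the unfolded protein response. IRE1α splices Xbp1 mRNA into the form that encodes an active factor, ATF6 is cut in the Golgi to release its own, and PERK phosphorylates eIF2α, which slows translation and favours Atf4. ERAD is the disposal route: misfolded glycoproteins are recognized, drawn through a membrane channel built around SEL1L and the ubiquitin ligase HRD1 (Syvn1), and degraded by the proteasome. Hepatocytes secrete most plasma proteins and depend on both. Counts per gene measure transcripts, so neither Xbp1 splicing nor the cleavage or phosphorylation of the sensors can be read from them, and in bulk liver fewer cells of a type and less RNA per cell cannot be told apart.

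Between 16137093 and 18110223 reads per library were counted on genes. The deposited values are these counts divided by a DESeq2 size factor, and 1 read is worth 1.25 to 1.35 normalized counts in WT but only 0.707 to 0.810 in Vps15LKO livers. Fold changes below are log2(normalized count + 1), Vps15LKO over WT, from limma over the 15430 genes that reached 20 normalized counts in 3 or more livers. A call needed a fold of 1.2 or more in either direction and a Benjamini-Hochberg adjusted p below 0.05. Dividing by total reads instead lifts the median over all tested genes by 0.72 on the log2 scale, from −0.02 to 0.70, so the values of the 10 genes and the counts of each list are given under that scaling too, and sign changes are named. Pik3r4, which encodes Vps15, had 508, 573 and 460 normalized counts in WT and 341, 362 and 355 in Vps15LKO livers, a log2 fold change of −0.54 that was 0.19 and not called under total-read scaling. All 10 hepatocyte markers checked were present in every liver, with Alb between 2030859 and 2350416 normalized counts in WT and from 620735 to 968935 in livers of Vps15LKO mice.

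In normalized counts, 9 of the 10 genes were lower in Vps15LKO liver and 1, Eif2ak3, was higher, while 33.0% of all tested genes were called lower and 33.5% higher. The median log2 fold change of the 10 genes was −0.86. The fall of Herpud1 was the largest of them, and the sensors moved in different directions, Ern1 and Atf6 down and Eif2ak3 up. Under total-read scaling, 1 gene, Herpud1, was lower, 2, Eif2ak3 and Pdia4, were higher and 7 were not called, where 11.1% of all tested genes were lower and 66.7% higher. The median of the 10 genes was then −0.13, which is 0.84 below the median of all genes. That distance is the same with size factors, because both scalings shift all genes about alike, and it was 0.36 with quantile normalization, which gave 6 of the 10 genes lower and 1 higher. For each of the 10 genes the 3 WT and the 3 Vps15LKO normalized counts did not overlap, which was true of 73.2% of all tested genes. In reads scaled to each library's total, 6 of the 10 did not overlap, against 82.0% of all tested genes. Xbp1, Ern1, Atf6 and Creb3l3 overlapped on that scale, Eif2ak3 and Pdia4 lay higher in Vps15LKO livers, and Herpud1, Edem1, Sel1l and Syvn1 lay lower. With 3 livers against 3, an exact permutation test of a single gene cannot give a p below 0.1, and the labels do not tie livers to litters.

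**Figure D1:**
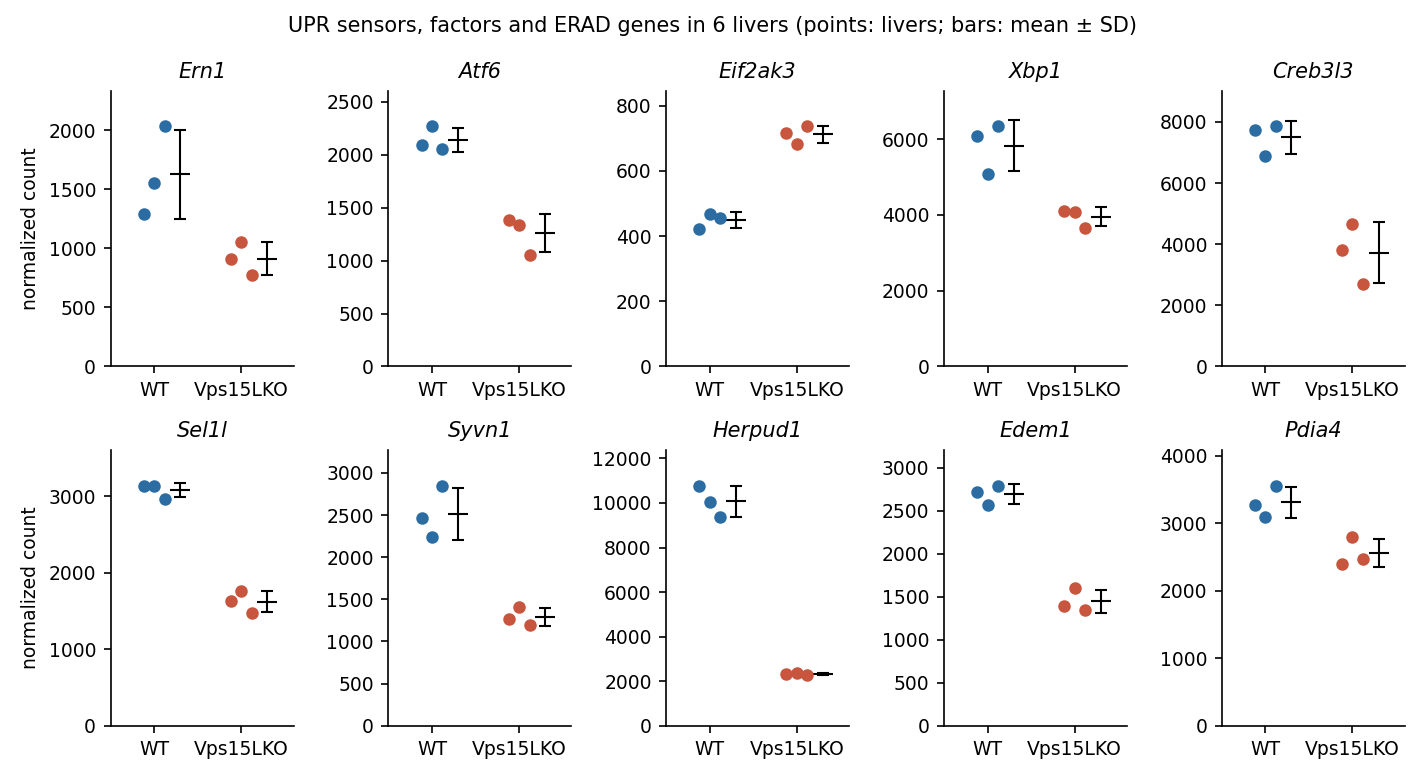
Normalized counts (y axes from 0, a separate scale for each gene) of the 10 genes in the 3 WT and 3 Vps15LKO livers; points are livers and bars the mean ± SD. On this scale no gene overlaps between genotypes, Eif2ak3 lies higher in Vps15LKO livers and the other 9 genes lie lower, while in reads scaled to each library's total Xbp1, Ern1, Atf6 and Creb3l3 overlap and Pdia4 lies higher.

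Ern1 (ENSMUSG00000020715, chromosome 11, 106394650 to 106487852 of GRCm38, minus strand) encodes IRE1α, the sensor with kinase and RNase activity. It had 1295, 1551 and 2033 normalized counts in WT and 911, 1054 and 772 in Vps15LKO livers. The WT livers were the more scattered, with a coefficient of variation of 23.0% against 15.4%. The log2 fold change of Ern1 was −0.82 (standard error 0.18, limma adjusted p = 0.0031), and with total-read scaling it was −0.09 and not called.

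Atf6 (ENSMUSG00000026663, chromosome 1, 170704674 to 170867771, minus strand) encodes the sensor that becomes a transcription factor once its cytosolic part is released. The 3 WT livers lay close together at 2089.7, 2268 and 2054 normalized counts, and the Vps15LKO livers at 1388, 1340.3 and 1055. The log2 fold change of Atf6 was −0.77 (standard error 0.12, limma adjusted p = 0.0005), and −0.04, not called, with total-read scaling.

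Eif2ak3 (ENSMUSG00000031668, chromosome 6, 70844515 to 70905245, plus strand) encodes PERK, the kinase that phosphorylates eIF2α under ER stress. It had 422, 468 and 457 normalized counts in WT and 717, 683 and 736 in Vps15LKO livers, a ratio of means of 1.59. Of the 10 genes it was the only one higher in all 3 Vps15LKO livers on the deposited scale. The log2 fold change was 0.66 (standard error 0.09, limma adjusted p = 0.0002), a rise that was kept under total-read scaling at 1.39 and under quantile normalization at 0.74. In WT it was also the least abundant of the 10, at 74.5 ± 4.04 normalized counts per kb of exon (SD, n = 3). Exons of Eif2ak3 share 485 bases with Gm43292 on the other strand, which had 33 to 139 reads per library against 318 to 1041 for Eif2ak3, and whether counting used the strand is not given in the sources used here.

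The balance between the sensors can be read within a library, where the scaling between libraries cancels. Per kb of exon, the ratio of Eif2ak3 to Ern1 was 0.441, 0.410 and 0.305 in WT and 1.07, 0.879 and 1.29 in Vps15LKO livers, so Eif2ak3 went from the lesser to about the same level. The ratio of Eif2ak3 to Atf6 was 0.322 ± 0.0166 in WT livers and 0.880 ± 0.163 in those of Vps15LKO mice (SD, n = 3), again without overlap. In contrast, the ratio of Ern1 to Atf6 overlapped, at 0.863 ± 0.223 and 0.819 ± 0.0739 (exact permutation p = 0.9, two-sided, n = 3 livers each).

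Xbp1 (ENSMUSG00000020484, chromosome 11, 5520659 to 5525893, plus strand) encodes the factor that IRE1α activates by splicing, a driver of chaperone and ERAD genes. It had 6077, 5075 and 6337 normalized counts in WT and 4095, 4091 and 3659 in Vps15LKO livers. The Vps15LKO livers were all lower and less scattered than the WT livers. For Xbp1 limma gave a log2 fold change of −0.56 (standard error 0.12, limma adjusted p = 0.0031), but the sign turned to 0.17 with total-read scaling and 0.12 with quantile normalization, neither of them called. The ratio of Xbp1 to Ern1 per kb, a within-library comparison of substrate and enzyme, was 9.29 ± 2.18 in WT and 11.0 ± 1.11 in Vps15LKO livers and overlapped (SD, exact permutation p = 0.3, n = 3 each).

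Creb3l3 (ENSMUSG00000035041, chromosome 10, 81084324 to 81098874, minus strand) encodes CREBH, an ER-bound factor of hepatocytes that is cut in the Golgi as ATF6 is and acts on acute-phase and lipid genes. It had 7750.2, 6878 and 7851 normalized counts in WT livers and 3819, 4672 and 2687 in Vps15LKO livers. The Vps15LKO livers differed most from each other for this gene, with a coefficient of variation of 26.7% against 7.14% in WT. The log2 fold change was −1.04 (standard error 0.19, limma adjusted p = 0.0013), and −0.32 with total-read scaling and −0.33 with quantile normalization, neither of them called. Relative to Creb3l3, Xbp1 gained: their ratio per kb was 0.721 ± 0.0327 in WT and 1.02 ± 0.227 in Vps15LKO livers, without overlap.

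**Figure D2:**
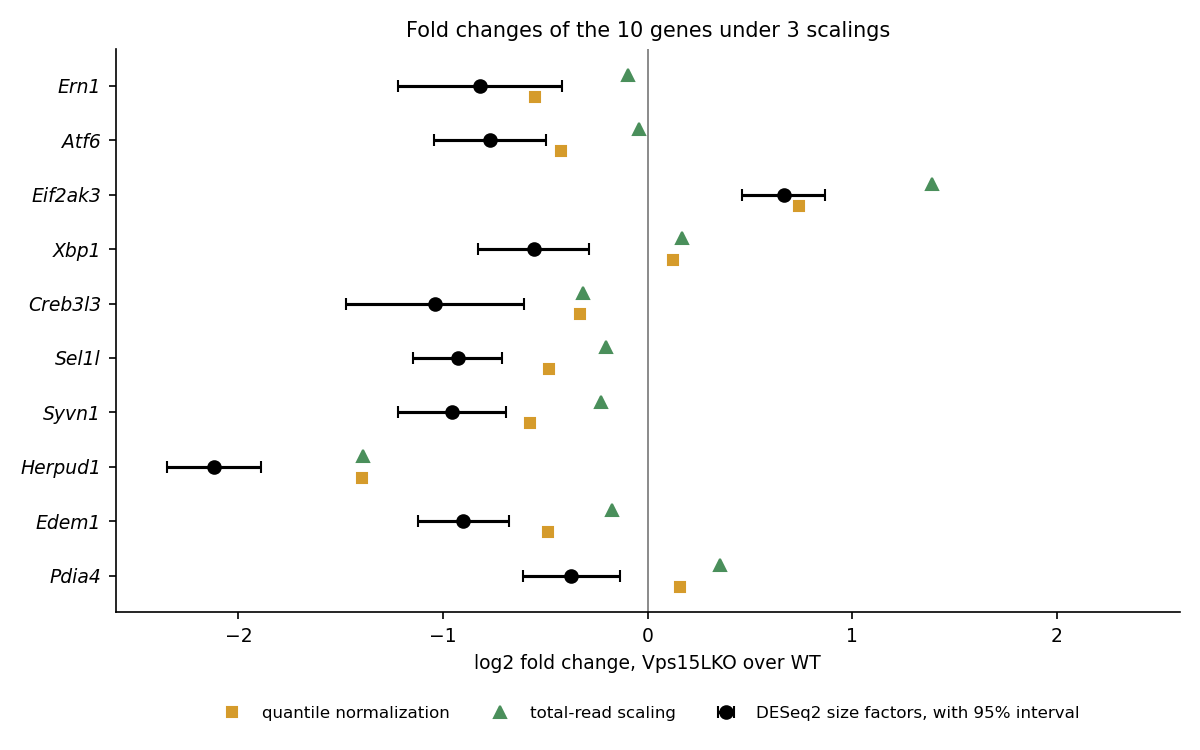
log2 fold change (Vps15LKO over WT, x axis) of the 10 genes with DESeq2 size factors (points, bars are 95% intervals from limma), quantile normalization (squares) and total-read scaling (triangles). Herpud1 stays below 0 and Eif2ak3 above 0 under all 3, while Xbp1 and Pdia4 change sign.

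The ERAD genes were led by Herpud1 (ENSMUSG00000031770, chromosome 8, 94386438 to 94395377, plus strand), which encodes HERP, a membrane protein that joins the HRD1 complex and is a classic transcriptional target of the unfolded protein response. It had 10775, 10058 and 9379 normalized counts in WT and 2299, 2376 and 2273 in Vps15LKO livers, a ratio of means of 4.35. The Vps15LKO values were the tightest of any of the 10 genes, with a coefficient of variation of 2.31%. The log2 fold change of Herpud1 was −2.12 (standard error 0.10, limma adjusted p = 1.2e-06) and stood at the 3.17 percentile of all tested genes. It was still called lower with total-read scaling at −1.39 and with quantile normalization at −1.40. In WT liver Herpud1 was the most abundant of the 10 genes per kb of exon, at 4317 ± 299 normalized counts, ahead of Creb3l3 at 2484 ± 177 and Xbp1 at 1795 ± 205 (SD, n = 3). In Vps15LKO liver Creb3l3 at 1235 ± 330.2, Xbp1 at 1216 ± 77.1, Pdia4 at 1065 ± 88.1 and Herpud1 at 993 ± 22.9 lay side by side, with each neighbour in that order overlapping the next. Below them in WT came Pdia4 (1379), Syvn1 (518), Edem1 (417), Sel1l (359.9), Atf6 (232), Ern1 (199) and Eif2ak3, of which only Atf6 and Ern1 overlapped. In Vps15LKO liver Syvn1 (266) overlapped Edem1 (224), Sel1l (189) stood alone, and Atf6 (137), Eif2ak3 (118) and Ern1 (112) overlapped in turn.

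Sel1l (ENSMUSG00000020964, chromosome 12, 91806043 to 91849157, minus strand) encodes the adaptor that stabilizes HRD1. It had 3133, 3135 and 2968 normalized counts in WT and 1633, 1754 and 1474 in Vps15LKO livers, so that even the highest Vps15LKO liver was far below the lowest WT liver. Its log2 fold change was −0.93 (standard error 0.10, limma adjusted p = 5.3e-05), and with total-read scaling −0.20, where it missed the fold needed for a call.

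Syvn1 (ENSMUSG00000024807, chromosome 19, 6046576 to 6053712, plus strand) encodes HRD1, the ubiquitin ligase of the channel. It had 2461, 2237 and 2848 normalized counts in WT and 1269, 1409 and 1199 in Vps15LKO livers. Its log2 fold change of −0.96 (standard error 0.11, limma adjusted p = 0.0001) was close to that of its partner Sel1l, and −0.23, not called, with total-read scaling. Syvn1 exons share 91 bases with Mrpl49 on the other strand.

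Edem1 (ENSMUSG00000030104, chromosome 6, 108828641 to 108859356, plus strand) encodes the lectin that trims or binds mannose chains of misfolded glycoproteins and hands them to ERAD. It had 2718, 2566 and 2789 normalized counts in WT and 1393, 1595 and 1344 in Vps15LKO livers. The drop was of the same order as that of Sel1l and Syvn1, with a log2 fold change of −0.90 (standard error 0.10, limma adjusted p = 6.8e-05) and −0.17, not called, with total-read scaling.

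Pdia4 (ENSMUSG00000025823, chromosome 6, 47796141 to 47813430, minus strand) encodes ERp72, a disulfide isomerase that helps proteins fold. It had 3271, 3097 and 3555 normalized counts in WT and 2399, 2796 and 2469.8 in Vps15LKO livers, the smallest fold of the 10 genes. Its log2 fold change was −0.37 (standard error 0.10, limma adjusted p = 0.011), and it turned to 0.35, called higher, with total-read scaling and to 0.16, not called, with quantile normalization. Without Vps15LKO replicate 1 the limma adjusted p for Pdia4 was 0.061, past the threshold for a call. Pdia4 was also not called with upper-quartile scaling (−0.25, limma adjusted p = 0.05005). The microRNA gene Mir704 lies within Pdia4 and shares 14 bases of exon.

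Herpud1, whose fall was already the largest of the 10 genes, was also set against Sel1l and Syvn1 within each library. Per kb, Herpud1 over Sel1l was 12.6, 11.8 and 11.6 in WT livers and 5.16, 4.97 and 5.66 in Vps15LKO livers, and Herpud1 over Syvn1 was 8.45 ± 1.38 and 3.74 ± 0.22 (SD, n = 3). Both other ratios computed among ERAD genes overlapped between genotypes. Sel1l over Syvn1 was 0.704 ± 0.103 in WT and 0.712 ± 0.0168 in Vps15LKO livers (exact permutation p = 0.9, n = 3 each). Edem1 over Sel1l was 1.16 ± 0.0809 and 1.18 ± 0.044 (exact permutation p = 0.7, n = 3 each). In normalized counts Pdia4 fell less than Herpud1, and the ratio of Pdia4 to Herpud1 was 0.321 ± 0.0412 in WT and 1.07 ± 0.0659 in Vps15LKO livers.

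As a share of the summed per-kb counts of the 10 genes, Herpud1 fell from 36.7% ± 2.71 in WT liver to 18.0% ± 1.48 in Vps15LKO (SD, n = 3). The shares of Xbp1 (15.2% ± 1.17 and 21.96% ± 1.198), Pdia4 (11.7% ± 0.606 and 19.2% ± 1.36) and Eif2ak3 (0.635% ± 0.0601 and 2.15% ± 0.301) were higher in every Vps15LKO liver than in any WT liver. So were those of Atf6 (1.97% ± 0.195 and 2.46% ± 0.217), Edem1 (3.54% ± 0.076 and 4.03% ± 0.15) and Sel1l (3.06% ± 0.195 and 3.41% ± 0.0582). Those of Ern1, Syvn1 and Creb3l3 overlapped. These shares depend on each other, since they sum to the whole, and were not tested.

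**Figure D3:**
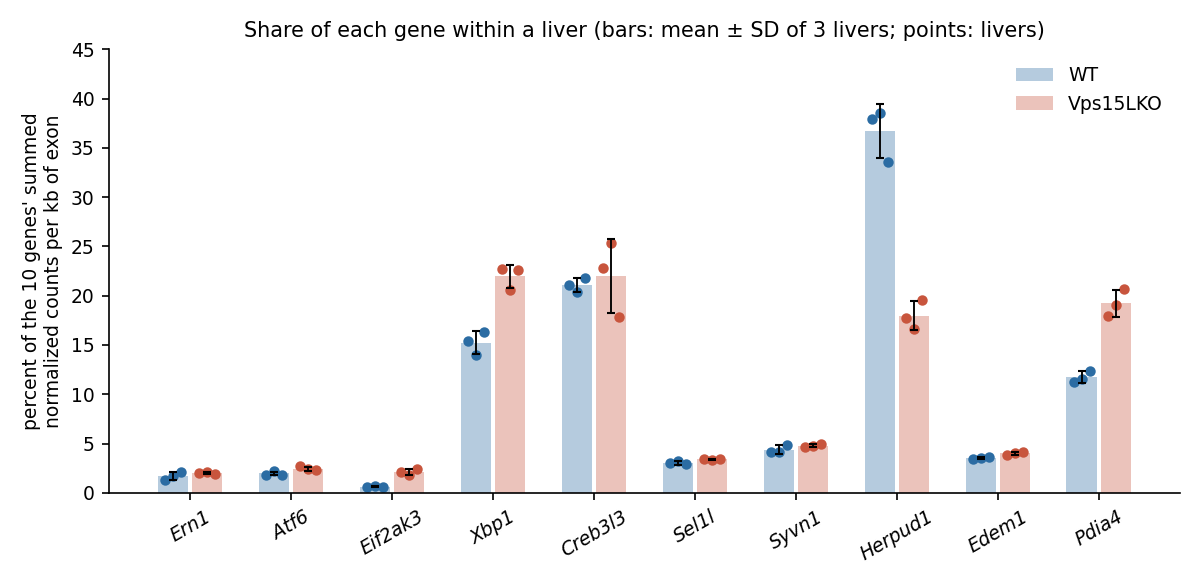
Share of each gene (y axis, percent) in the summed normalized counts per kb of exon of the 10 genes, by liver; bars are means ± SD of 3 livers and points are livers. Herpud1 falls from 36.7% to 18.0% of the sum, and Xbp1, Pdia4, Eif2ak3, Atf6, Edem1 and Sel1l take larger shares without overlap.

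The order of livers within a genotype was partly shared among the 10 genes. WT replicate 3 had the highest normalized count for 6 genes (Xbp1, Ern1, Edem1, Syvn1, Creb3l3 and Pdia4) but the lowest for Herpud1, Atf6 and Sel1l. Vps15LKO replicate 2 was highest for 7 genes, and Vps15LKO replicate 3 lowest for 8 and highest for Eif2ak3. These are also the Vps15LKO libraries with the largest and the smallest value of 1 read, 0.810 and 0.707, and in reads scaled to the library total Vps15LKO replicate 3 was lowest for 4 of the 10 genes and highest for 3. The part of the scaling in this order was not tested.

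The genes whose pattern over the 6 livers was most like that of a member were found by the root mean square difference of centred log2 values. For Herpud1 they were Slc37a4 (0.096), Slc25a21 (0.11) and Etnk2 (0.11), and only 1 of the other 15429 tested genes came within 0.1. Ern1 and Creb3l3 also had few such neighbours, with 8 and 14, whereas 187 genes came within 0.1 of Eif2ak3, nearest Tnfaip1 (0.030), Myo7a (0.034) and Vwa5a (0.035), and 159 of Xbp1, nearest Carnmt1 (0.040), C1d (0.041) and Mrpl50 (0.043).

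Promoters of the 10 genes were searched for the sequences through which ATF6 and XBP1 are known to act. These are the ER stress response element ERSE (CCAAT, then 9 bases, then the letters CCACG), ERSE-II (ATTGG, then 1 base, then the same ending), the UPR element UPRE (TGACGTGG) and, because Bmal1 binds it, the E-box (CACGTG), on both strands, in RefSeq promoters of GRCm38.p6 that run from 250 bases before to 50 after the transcript start. Of the 32851 promoters in the set, 0.119% held an ERSE, 0.0365% an ERSE-II, 0.676% a UPRE and 7.15% an E-box, where the last letters of an ERSE or ERSE-II can also be part of an E-box or a UPRE. Promoters were found for 9 of the 10 genes, all but Atf6. Herpud1 held an ERSE-II 52 to 42 bases before its start and Syvn1 an ERSE 44 to 26 bases before its start, and no UPRE or E-box was found in the 9. Their 250 bases before the start are shown because these genes, the steepest fall and the ligase of the complex, are the members whose windows carry a match, at chr8:94386179-94386428 and chr19:6046326-6046575, both on the plus strand, with the 2 fixed pieces of each element in capitals.
Herpud1: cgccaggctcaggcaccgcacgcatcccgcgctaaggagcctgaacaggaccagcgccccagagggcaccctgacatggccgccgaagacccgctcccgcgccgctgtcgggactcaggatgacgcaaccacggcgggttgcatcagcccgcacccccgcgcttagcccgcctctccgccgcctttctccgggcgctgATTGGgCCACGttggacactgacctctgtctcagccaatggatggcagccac
Syvn1: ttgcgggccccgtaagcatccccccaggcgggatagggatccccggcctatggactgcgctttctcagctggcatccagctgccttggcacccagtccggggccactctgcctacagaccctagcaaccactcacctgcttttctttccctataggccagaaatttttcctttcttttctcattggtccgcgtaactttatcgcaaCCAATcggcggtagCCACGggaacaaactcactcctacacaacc

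Genes of ER chaperones also held the element. Of the 21 folding genes with a promoter in the set, 8 carried an ERSE or ERSE-II. The sites of Hspa5 (chr2:34772025-34772043, plus strand), which encodes the chaperone BiP, and of Dnajc3 (chr14:118937827-118937845, plus strand), which encodes a co-chaperone that restrains PERK, are set beside the Syvn1 site to show how the 9 bases between the fixed pieces differ. Capitals mark the fixed pieces.
Syvn1 ERSE: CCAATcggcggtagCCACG
Hspa5 ERSE: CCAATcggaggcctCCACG
Dnajc3 ERSE: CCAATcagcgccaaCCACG

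All 8 of these folding genes were called lower, with a median log2 fold change of −0.94, and of the 13 without a match 11 were lower and 1 higher, with a median of −0.67. With total-read scaling 3 of the 8 were lower by limma and 0 higher (median −0.21, and 0 higher at an unadjusted p under 0.05), and 2 of the 13 were lower and 4 higher (median 0.05). With their own scalings edgeR, DESeq2 and voom also called 0 of the 8 higher. Over the whole table, 27 tested genes had an ERSE or ERSE-II, of which 59.3% were lower and 14.8% higher in normalized counts, beside 33.5% and 33.8% of the 10804 tested genes with any promoter in the set. The 27 include Herpud1, Syvn1 and the 8 folding genes, all lower, and of the 17 others 6 (35.3%) were lower and 4 (23.5%) higher, so the difference from the other genes rests on those already described. For the 1234 genes with an E-box the shares were 32.3% and 31.1%. A match of letters does not show that a factor binds there.

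**Figure D4:**
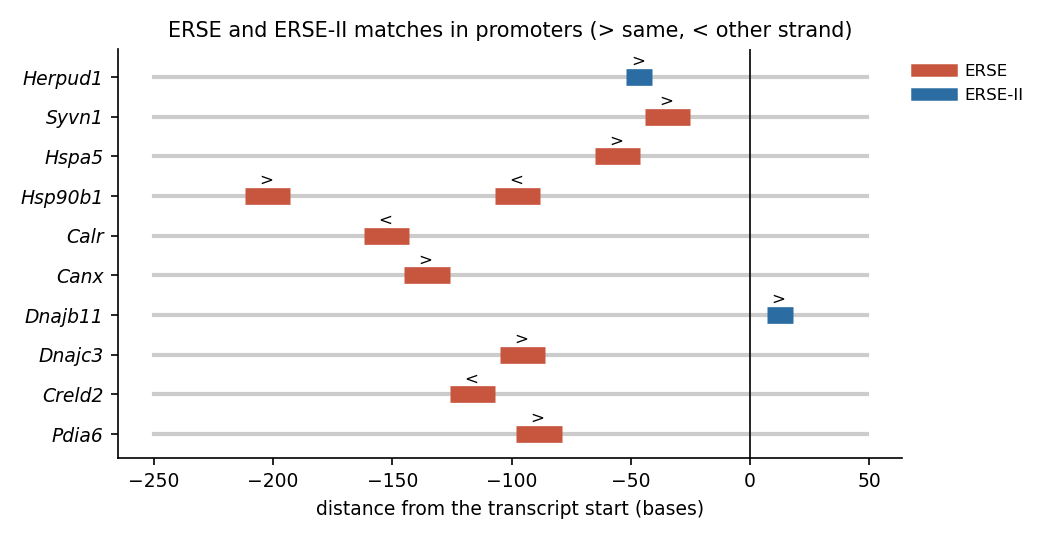
Positions of ERSE (red) and ERSE-II (blue) matches, in bases from the transcript start (x axis), in the promoters of Herpud1, Syvn1 and 8 folding genes; grey lines are the window searched and arrowheads give the strand. All matches but that of Dnajb11 lie before the start, that of Herpud1 at 52 to 42 bases and that of Syvn1 at 44 to 26 bases before it.

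The other genes of the pathway were counted in 7 lists with 165 genes, of which 162 were tested, and 94 were lower and 22 higher in normalized counts (38 lower and 76 higher with total-read scaling). Of all tested genes, 33.0% were lower and 33.5% higher, and 11.1% and 66.7% with total-read scaling. ER chaperones and disulfide isomerases moved with the 9 lower members: 23 of 26 were lower and 1 higher, median −0.81 (7 lower and 5 higher, median −0.09, with total-read scaling, and 14 lower and 3 higher, median −0.45, with quantile normalization). Hspa5 had a log2 fold change of −0.90 (0.03, not called, with quantile normalization), Hsp90b1, the ER form of HSP90, −1.17, and Dnajb9, a BiP co-chaperone that is also a repressor of IRE1α, −0.92, while Sdf2l1, a BiP partner, was called at −0.63 but stood at 0.09, not called, with total-read scaling. The largest falls were Ero1b (−2.34), an oxidase that supplies disulfide isomerases, and Hyou1 (−1.50), an ER chaperone, and the only rise was Dnajc10 (1.10), an ER reductase. Dnajb9 was also among the 3 genes nearest to Ern1 in pattern over the 6 livers. Hsp90b1 shares 415 bases of exon with 1810014B01Rik on the other strand.

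Of the other ERAD genes, 22 of the 31 tested were lower and 1 higher, median −0.49, and 4 were lower and 14 higher, median 0.24, with total-read scaling. Under that scaling 66.7% of all tested genes were higher, and the list's median was 0.47 below that of all genes. With quantile normalization 16 were lower and 3 higher, and the list's median was 0.18 below that of all genes. The steepest falls were those of Svip (−1.36), an inhibitor of the ATPase VCP in ERAD, and Marchf6 (−1.19), another ER ubiquitin ligase, and the rise was that of Trim13 (0.89), an ER-bound ligase. Edem2, the relative of Edem1, was not called (−0.01, standard error 0.10, but 0.71 and called higher with total-read scaling). Derl3 did not pass the filter, with 19.9, 12.5 and 107.8 normalized counts in WT and 8.40, 8.91 and 8.49 in Vps15LKO livers. Its promoter holds an ERSE, and WT replicate 3 carried most of its counts in WT livers.

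Relatives and partners of the sensors were mixed, with 5 of 16 tested genes higher and 5 lower, median 0.13 (12 higher and 1 lower, median 0.86, with total-read scaling), a split near that of all tested genes (33.5% higher and 33.0% lower). Creb3l1, a CREBH relative known from cells that make collagen, rose by 2.18, and Mbtps2, the site-2 protease that cuts ATF6, rose by 0.73 on the log2 scale, although it shares 2867 bases of exon with Yy2 on the same strand. The site-1 protease gene Mbtps1 was not called (−0.24, and 0.49, called higher, with total-read scaling), nor was the Atf6 paralog Atf6b (−0.06, and 0.67, called higher, with total-read scaling). The falls were led by Tmbim6 (−1.12, but 0.15, not called, with quantile normalization), which restrains IRE1α, and Ppp1r15b (−0.86), a subunit of the eIF2α phosphatase.

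Genes downstream of PERK through Atf4 and Ddit3 moved the other way. By limma 10 of 13 were higher and 0 lower, median 1.28, beside 33.5% higher and 33.0% lower of all tested genes. All 13 were higher with total-read scaling, median 2.001, where 66.7% of all tested genes were higher. At an unadjusted p under 0.05, and by edgeR, DESeq2 and voom, the number lower was also 0. Of the 10 higher genes, Atf3, Stc2 and Psat1 were under 20 normalized counts in some WT liver and passed the filter through the group where they were high, and with a filter of 20 in every liver 7 were higher and the median was 0.88. Ddit3, which encodes CHOP, had 145, 119.9 and 111 normalized counts in WT and 304, 284 and 282 in Vps15LKO livers, a log2 fold change of 1.22 (standard error 0.13, limma adjusted p = 6.6e-05). The groups were far apart, but Ddit3 shares 105 bases of exon with another annotated Ddit3 gene on the same strand. Nupr1, a stress-induced nuclear protein, rose by 5.77 and Psat1, an enzyme of serine synthesis, by 4.83 on the log2 scale, a value that was 4.19 without WT replicate 2 and 5.56 without WT replicate 3. Atf4 itself, which is controlled mainly at translation, was not called (−0.21, standard error 0.11), nor was Trib3 (−0.03, standard error 0.17), a target of both factors, and with total-read scaling the 2 genes were called higher at 0.52 and 0.69. The genes of this list are known as targets of the other eIF2α kinases as well.

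**Figure D5:**
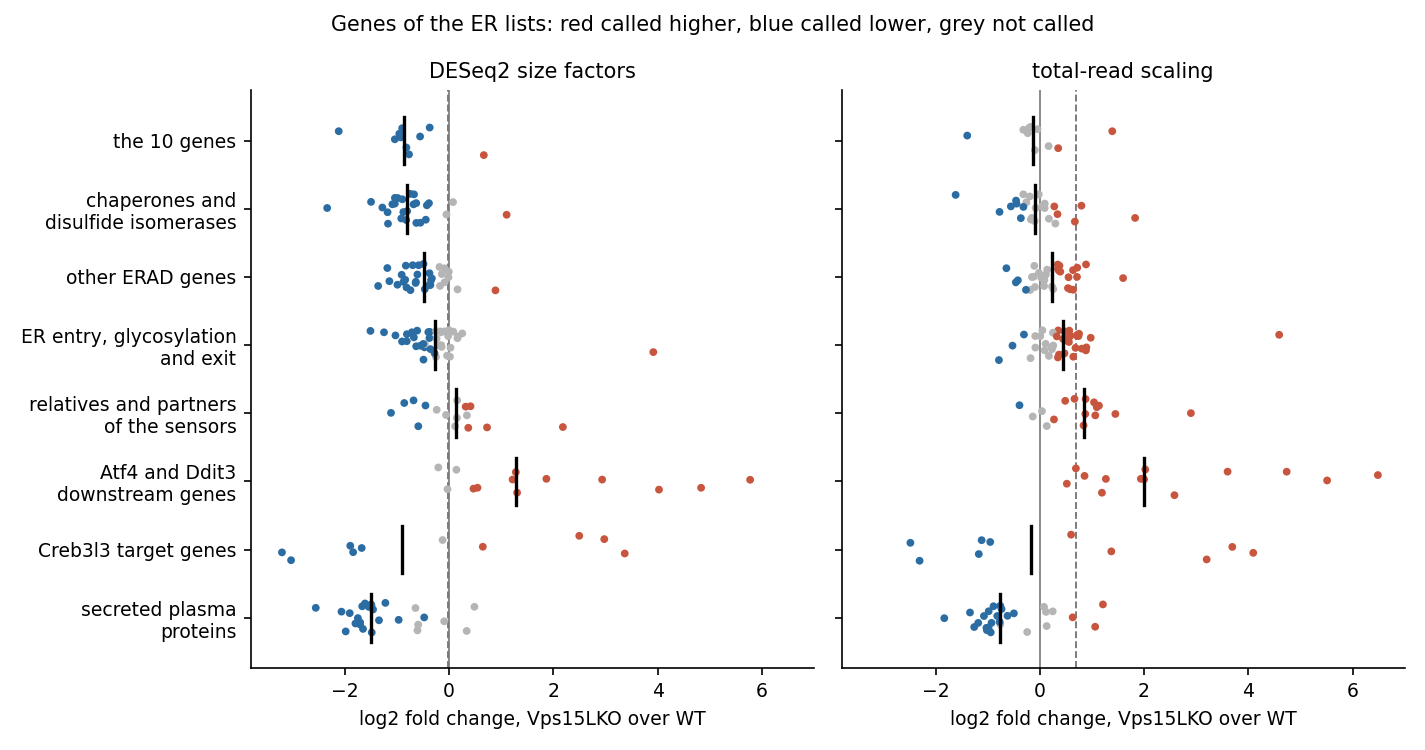
log2 fold change (x axes) of each gene of the 10 described here and of the 7 lists, with DESeq2 size factors (left) and total-read scaling (right); red is called higher, blue called lower, grey not called, black bars are list medians and the dashed line is the median of all tested genes. Chaperone and secreted protein genes mostly lie to the left of the dashed line and genes downstream of Atf4 and Ddit3 to the right in both panels, with a median of 1.28 on the left and 2.001 on the right.

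Genes for ER entry, N-glycosylation and exit were lower in 19 and higher in 1 of 39 cases, median −0.28, and lower in 3 and higher in 24, median 0.45, with total-read scaling, where 66.7% of all tested genes were higher. Relative to the median of all genes the list's median was −0.26 with both scalings and 0.09 with quantile normalization. The largest falls were Sar1b (−1.51), a GTPase of the vesicle coat that carries lipoproteins out of the ER, and Sec63 (−1.25), a translocon partner of BiP. The rise was that of Kdelr3, a receptor that returns chaperones to the ER, at 9.28, 7.49 and 5.39 normalized counts in WT and 118, 91.6 and 174 in Vps15LKO livers (log2 fold change 3.92). Kdelr3 passed the filter on low values only through the Vps15LKO livers, so it had to differ, and with a filter of 20 in every liver it was not tested and the list had 0 higher.

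Genes described as Creb3l3 targets in liver moved in both directions, 5 of 10 lower and 4 higher, median −0.90. With total-read scaling 5 were lower and 5 higher, median −0.17. The shares of all tested genes were 33.0% lower and 33.5% higher, and 11.1% and 66.7% with total-read scaling. The list's median was −0.20 with quantile normalization and −1.68 with a filter of 20 in every liver, which left out Fgf21. Higher were Apoa4 (3.37), an apolipoprotein, Cidec (2.98), a lipid droplet protein, and the hormone gene Fgf21 (2.50), which was at 37.1, 12.5 and 25.6 normalized counts in WT and 139, 283 and 60.8 in Vps15LKO livers. Lower were the gluconeogenic G6pc (−3.21) and Pck1 (−3.03) and the hepcidin gene Hamp (−1.84). The value of G6pc was −3.96 without Vps15LKO replicate 2 and −2.39 without Vps15LKO replicate 3. Hamp has a close paralog, Hamp2, which ranged from 1328 to 2892 in WT and from 308 to 423 in Vps15LKO livers, and reads could be split between them. Apoa4 shares 632 bases of exon with the antisense gene Gm10680, whose reads also ranged widely, from 1038 to 27882 per library.

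Among 27 secreted plasma proteins, the cargo of the hepatocyte ER, 20 were lower and 0 higher by limma, median −1.50. At an unadjusted p under 0.05 the number higher was also 0. It was 1 without the mean-variance trend, by edgeR and by voom, and 2 by DESeq2. With total-read scaling 18 were lower and 3 higher, median −0.77. Quantile normalization gave 11 lower and 4 higher, median −0.23. Alb, albumin, did not overlap between genotypes but was not called, at −1.48 with a standard error of 1.38. Without the mean-variance trend, and by edgeR, DESeq2 and voom, Alb was called lower, and the number of lower genes in the list was 24 without the trend, by DESeq2 and by voom and 21 by edgeR. The steepest called falls were Apoa2 (−2.56) and Fgg (−2.06), an apolipoprotein and a fibrinogen chain. The 9 lower genes were measured in livers where 20 of these 27 genes were lower too in normalized counts, against 33.0% of all tested genes. With total-read scaling 18 of the 27 and 1 of the 10 genes described here were lower, against 11.1% of all tested genes. Whether the levels of the cargo and of the 10 genes are linked was not tested.

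Markers of other cells moved with the genotype beside these genes. Of the markers tested, 12 of 14 for macrophages, 10 of 10 for stellate cells and fibroblasts and 7 of 7 for cholangiocytes were called higher. All tested genes were 33.5% higher and 33.0% lower (66.7% and 11.1% with total-read scaling). Endothelial markers were split, with 5 of 8 higher and 3 lower (6 higher and 0 lower with total-read scaling). Of the hepatocyte markers 9 of 10 were lower (9 also with total-read scaling, and 7 with quantile normalization). Whether markers low in WT passed the filter only through the Vps15LKO livers was not checked. Summed macrophage markers went from 10682–12401 normalized counts in WT to 42908–46149.8 in Vps15LKO livers, those of stellate cells from 7095–7597 to 30561–36135, those of cholangiocytes from 1269–1419 to 12339–23807, those of endothelial cells from 7363–8123 to 6783–8379 and those of hepatocytes from 2708212–3165517 to 789862–1204915. Markers of B and plasma cells, which use Xbp1 heavily, summed to 379–571 in WT and 802–1632 in Vps15LKO livers, with 4 of 5 tested markers higher (Jchain at 2.22, Igkc at 1.70, Ighm at 0.98 and Cd79b at 0.96 in log2 fold change) and Cd79a not called at −0.65. With quantile normalization Cd79b was not called and Cd79a was lower. The other 5 of the 10 markers did not pass the filter, among them Mzb1 at 1.35 to 5.67 and Tnfrsf17 at 0 to 0.707 normalized counts. The part of this change in cell markers in the values of the 10 genes was not tested.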

How the data were processed

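Poly(A) RNA of 6 mouse livers was sequenced on a DNA nanoball platform after a strand-marking preparation. Filtering with SOAPnuke, alignment to GRCm38 with HISAT2 and counting of reads per gene with featureCounts were done by the authors, who then applied DESeq2 size factors. The versions, and the strand setting of the counting, are not given in the sources used here. The deposited values are this normalized signal, and 100% of them were whole multiples of 1 read (tolerance 0.01), so whole reads were recovered. Depth lay between 16137093 and 18110223 reads on genes per library, and the spread between livers includes the counting error.

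The 15430 genes that reached 20 normalized counts in 3 or more livers were compared on log2(normalized count + 1) in R 4.3.3 with limma 3.58.1, using eBayes with a trend. P-values were Benjamini-Hochberg adjusted over these genes, and a call needed a fold of 1.2 or more and an adjusted p below 0.05. This scale understates changes of genes with low counts. The genotype and number of each liver come from the labels, and nothing ties a number to a litter. The p-values weigh the genotype difference against the spread between these livers, which limma moderates over all genes by their level. Gene names, positions and exon lengths come from GENCODE M21 (55227 of 56305 identifiers matched) and promoters from RefSeq (GRCm38.p6). Levels were compared between genes only per kb of exon. The 10 genes and all lists were chosen with earlier results of these data known, so lists are described by counts and medians beside those of all genes, with no test. Named list genes are a set chosen by role (Hspa5, Hsp90b1, Dnajb9, Sdf2l1, Derl3, Edem2, Atf6b, Mbtps1, Atf4, Ddit3, Trib3, Hamp, Fgf21, Apoa4 and Alb) and the 2 largest called rises and falls of each list. The B and plasma cell markers given by name were chosen after their values were seen.

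Alternatives were pseudocounts of 0.1 and 10, other filters and thresholds, TMM, upper-quartile, quantile and total-read scaling, limma without a trend, limma voom, edgeR 4.0.16 and DESeq2 1.42.0 on the recovered reads, each liver left out in turn and the replicate number as a block. On the recovered reads edgeR called 5383 genes higher and 4822 lower. The comparison was tested first on simulated data in which few genes changed, as many up as down, so it could not test the choice of scaling. Tables and plots used Python 3.11.15 and matplotlib 3.10.9.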

Additional observations from a re-analysis of the deposited data

How the results depend on the processing

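The scaling between libraries changed the most calls, and 925 of 987 values of single genes under the alternatives kept their direction and their side of the threshold. That total pools settings close to the main one with others. With list counts and medians included, 71 results stayed the same with a pseudocount of 0.1, 45 with quantile normalization and 32 with total-read scaling. Of the 10 genes, 2 were higher and 1 lower with total-read scaling, and of the 162 pathway genes 76 were higher and 38 lower with total-read scaling and 40 higher and 61 lower with quantile normalization. Eif2ak3 and Herpud1 kept direction and call under all 22 alternatives tried. Log2 fold changes that changed sign with total-read scaling were those of Xbp1 (0.17), Pdia4 (0.35), Sdf2l1 (0.094), Edem2 (0.71), Atf6b (0.67), Mbtps1 (0.49), Atf4 (0.52), Trib3 (0.69) and Pik3r4 (0.19), and with quantile normalization Xbp1 (0.12), Pdia4 (0.16), Hspa5 (0.034), Edem2 (0.31), Mbtps1 (0.10), Atf4 (0.23) and Tmbim6 (0.15). With upper-quartile scaling the signs of Edem2 (0.11), Atf6b (0.064) and Trib3 (0.091) changed, and so did those of Edem2 and Trib3 with TMM (0.033 and 0.013), edgeR (0.029 and 0.027), DESeq2 (0.0074 and 0.0053) and voom (0.031 and 0.0081). With each liver left out in turn, Edem2 ran from −0.073 to 0.073 and Trib3 from −0.19 to 0.13. The cause was not tested.

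Same-numbered livers did not deviate together (correlations of −0.0099, −0.011 and 0.049), so the numbers were not used as pairs. With the replicate block, 9 of the 10 genes were lower and 1 higher, 94 pathway genes were lower and 22 higher, and 5065 genes were higher and 4983 lower over the whole table. Leaving out each liver in turn gave 8 to 9 of the 10 genes called lower and 1 higher, and 83 to 93 pathway genes lower and 20 to 23 higher (the gene lost was Pdia4, without Vps15LKO replicate 1). The data cover 3 livers per genotype and transcripts only.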
